A study of Mus musculus with 4 samples.

Results

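Genes of T cells and of cytotoxic lymphocytes were read in IgA-positive cells of the mouse small intestine, in a fraction that carried CD11b on its surface and a fraction that did not. The set holds 10 named genes, chosen by symbol with earlier results of these data known. They are Cd3e, Cd3g, Cd8a, Lck, Cd7, Ccl5, Nkg7, Gzma, Gzmb and Klrd1. Of these, 9 were matched to 13 of the 45037 probe sets of the array, among 18193 genes matched in all; Lck was not analysed here. CD11b is the alpha M subunit of an integrin found mostly on myeloid cells, and IgA-positive cells of the gut are mainly plasma cells.

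The CD11b-positive IgA+ group and the CD11b-negative IgA+ group each have 2 Affymetrix arrays. The cells were primary, untreated cells of female Balb/c mice aged 9 weeks, labelled WT in the titles. Each group has 1 array labelled by the One-Cycle kit (1 µg of RNA) and 1 labelled by the 3' IVT Express kit (0.1 µg of RNA), so that every difference can be read within a kit. The labels give neither the number of animals pooled nor whether arrays of a group came from separate sorts, so the p-values rest on the spread among these arrays, and that spread may be technical.

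T cells recognise antigen through receptor chains that signal by way of the CD3 subunits and the kinase Lck. T cells that sit within the gut epithelium often carry CD8 and hold granules with granzymes, proteases that enter a target cell and start its death. Natural killer cells share these granules and add receptors of the lectin-like Klr family.

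All 9 measured genes had a lower mean signal in the CD11b-positive group, by 1.42-fold (Klrd1) to 2.08-fold (Cd7), and 8 of the 9 were lower in CD11b-positive cells by either kit and 0 higher by both, against 30.5% and 31.6% of the 12645 genes tested. Cd3e was the exception on these quantile-normalized signals. On the deposited signals, Gzma was also slightly higher by the 3' IVT Express kit. The set was chosen with earlier results of these data known, so these counts describe it and are no independent support. No gene passed the test across all genes, however. With limma, 0 of the 9 had an adjusted p under 0.05 (adjusted p = 0.618 to 0.946), against 0% of all genes in either direction, and Nkg7 alone had an unadjusted p under 0.05 and was lower, as were 3.52% of all genes (3.14% were higher). With the labelling kit as a block in the same limma model, 6 of the 9 were called lower (Cd8a, Cd7, Ccl5, Nkg7, Gzma and Gzmb) and 0 higher, against 4.14% and 3.73% of all genes. The blocked fit has 1 residual degree of freedom per gene and borrows a further 25.6 from the variance prior that limma estimates over the genes.

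The median log2 difference over the 9 genes, CD11b-positive minus CD11b-negative, was -0.92, beside -0.0010 over all 18193 genes. By kit it was -1.09 (One-Cycle) and -0.42 (3' IVT Express), beside -0.01 and 0.01 for all genes. Without the CD11b-negative One-Cycle array the median was 0.06, with 5 of the 9 genes higher, in a fit that holds the kits unevenly. In bulk RNA, fewer cells of a type and less RNA per cell cannot be told apart. Signals below are quantile-normalized, and folds are taken on log2 of the signal plus 3. An "N-fold lower" value is the CD11b-negative over the CD11b-positive level.

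The promoters of Nkg7, Gzma and Gzmb are shown because these granule genes were lower with both kits after quantile normalization and each holds a Runx core motif. They come from the RefSeq promoter table for GRCm38.p6, which matched 6 of the 9 genes, and cover the 200 bases before the annotated start, 5′ to 3′ on the gene's strand. Capitals mark every match, on either strand, to TGTGGT (Runx), TCACAC (T-box element), AGGAAG (Ets) or TGANTCA (AP-1), and no match overlaps another in these windows.
Nkg7 (chr7:43436938-43437137, + strand): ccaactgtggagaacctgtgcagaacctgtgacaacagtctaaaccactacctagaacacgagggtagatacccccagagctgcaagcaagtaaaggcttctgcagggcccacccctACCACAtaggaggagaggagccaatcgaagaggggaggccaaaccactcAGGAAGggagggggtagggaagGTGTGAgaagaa
Gzma (chr13:113100982-113101181, - strand): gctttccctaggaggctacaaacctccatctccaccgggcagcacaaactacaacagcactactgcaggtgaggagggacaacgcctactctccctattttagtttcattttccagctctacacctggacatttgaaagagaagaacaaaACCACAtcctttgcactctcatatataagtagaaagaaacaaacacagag
Gzmb (chr14:56262335-56262534, - strand): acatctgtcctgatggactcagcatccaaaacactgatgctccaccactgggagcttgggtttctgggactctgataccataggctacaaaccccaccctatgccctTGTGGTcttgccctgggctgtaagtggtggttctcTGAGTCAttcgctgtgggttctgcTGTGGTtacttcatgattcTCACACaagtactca

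Runx and T-box proteins are families that act in cytotoxic lymphocytes. The Runx letters stood at -83 to -78 in Nkg7, at -50 to -45 in Gzma, and at -93 to -88 and -34 to -29 in Gzmb, counting from -1 just before the start. Of all 32851 promoter windows of this length, 11.2% hold the Runx letters, 9.85% the T-box element, 24.7% the Ets and 5.48% the AP-1 letters. Among the 6 genes matched, 3 windows held the Runx letters, 2 the T-box, 2 the Ets and 1 the AP-1 letters. The windows of Cd3g and Cd8a held none of the 4 motifs, and that of Cd3e held the Ets letters alone. A match describes the letters and shows no binding.

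**Figure D1:**
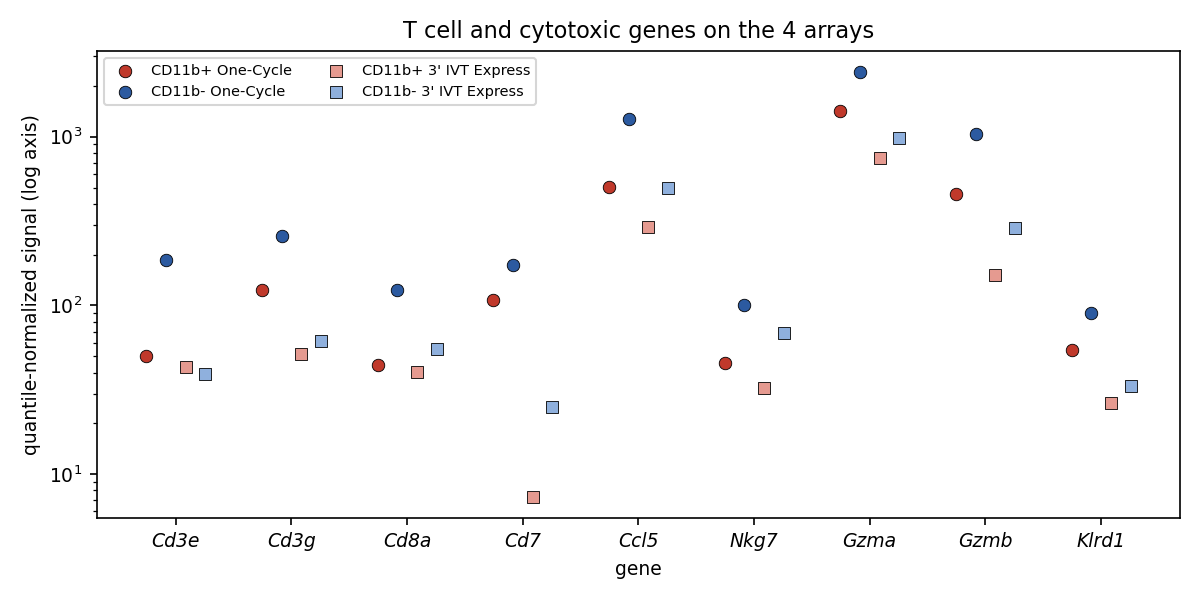
Quantile-normalized signal (vertical log axis) of the 9 genes on each of the 4 arrays; circles are One-Cycle and squares 3' IVT Express arrays, red shades CD11b-positive and blue shades CD11b-negative. The CD11b-negative One-Cycle array was the highest of the 4 for all 9 genes.

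Among the T cell receptor subunits, Cd3e, the CD3 epsilon chain, had signals of 49.8 (One-Cycle) and 43.4 (3' IVT Express) in the CD11b-positive arrays, against 187 and 39.4 in the CD11b-negative arrays. A single array, the CD11b-negative One-Cycle one, stood apart, and the other 3 lay close together, so the groups overlap. The log2 difference was -1.85 by One-Cycle and 0.13 by 3' IVT Express labelling, and -0.86 ± 0.65 (SE) over both (limma adjusted p = 0.897, and 0.0941 with the block).

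Cd3g, the CD3 gamma chain, read 123 and 51.6 in the CD11b-positive arrays, against 258 and 61.5 in the CD11b-negative arrays. The kit separated these values more than the fraction did. It was 2.08-fold lower by One-Cycle and 1.18-fold lower by 3' IVT Express labelling (log2 difference -0.65 ± 0.69, SE, limma adjusted p = 0.935, and 0.0631 with the block).

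Cd8a, the coreceptor chain that binds MHC class I, was measured by 5 probe sets, of which 4 passed the low-signal filter. The brightest, used for the gene, read 44.6 and 40.3 in the CD11b-positive arrays, against 123 and 55.1 in the CD11b-negative arrays. Here the groups did not overlap, as was so for 17.3% of all genes in this direction. CD11b-positive arrays averaged 42.5 ± 2.98 and CD11b-negative arrays 89.2 ± 48.2 (SD, n = 2 each), a log2 difference of -0.92 ± 0.40 (SE, limma adjusted p = 0.770, and 0.0334 with the block). The other 4 probe sets were also lower with both kits, with mean log2 differences of -0.91, -0.72, -0.67 and -0.43. The probe set at -0.67 lay below the filter.

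Cd7, an immunoglobulin-family surface protein of T and NK cells, read 108 and 7.35 in the CD11b-positive arrays, against 173 and 25.1 in the CD11b-negative arrays. Its 2 kits lay farther apart than those of any other gene of the set, and the CD11b-positive 3' IVT Express value was under the filter level of 9.51. It was 1.59-fold lower by One-Cycle and 2.72-fold lower by 3' IVT Express labelling, with a log2 difference of -1.05 ± 1.23 (SE, limma adjusted p = 0.946, and 0.0242 with the block).

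Among the effector genes, Ccl5, a chemokine released by cytotoxic T cells, read 502 and 291 in the CD11b-positive arrays, against 1273 and 495 in the CD11b-negative arrays. The CD11b-positive One-Cycle value was just above the CD11b-negative 3' IVT Express value, so the groups overlap by that pair. Within the kits Ccl5 was 2.53-fold and 1.69-fold lower, and the adjusted p was 0.770 by limma, and 1.88e-06 with the block.

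Nkg7, a membrane protein of cytotoxic granules, read 45.8 and 32.5 in the CD11b-positive arrays, against 101 and 68.2 in the CD11b-negative arrays. The groups did not overlap, and the kits gave nearly the same size, 2.13-fold and 2.01-fold lower. CD11b-positive arrays averaged 39.1 ± 9.37 and CD11b-negative arrays 84.4 ± 22.9 (SD, n = 2 each), a log2 difference of -1.05 ± 0.33 (SE, limma unadjusted p = 0.0164, adjusted p = 0.618, and 0.00941 with the block). Of the 9 genes, 2 (Nkg7 and Cd8a) had groups that did not overlap and were lower, a count to be read against the 17.3% of all genes tested.

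Gzma, a granule protease that cuts after basic residues, read 1421 and 743 in the CD11b-positive arrays, against 2420.4 and 988 in the CD11b-negative arrays. It was 1.70-fold and 1.33-fold lower within the kits (limma adjusted p = 0.902, and 0.000274 with the block). The 3' IVT Express direction depended on the scaling. As deposited, Gzma read 1414 and 1009 in the CD11b-positive arrays, against 1577 and 983 in the CD11b-negative arrays. Gzmb, the granzyme that cuts after aspartate and activates caspases, read 459 and 151 in the CD11b-positive arrays, against 1036 and 288 in the CD11b-negative arrays. Both granzymes had a CD11b-positive One-Cycle value above the CD11b-negative 3' IVT Express value. Gzmb was 2.25-fold and 1.90-fold lower within the kits (limma adjusted p = 0.878, and 2.09e-06 with the block).

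Klrd1, the CD94 chain that pairs with NKG2 receptors on NK and some T cells, read 54.1 and 26.3 in the CD11b-positive arrays, against 90.2 and 33.3 in the CD11b-negative arrays. Its log2 difference of -0.51 ± 0.54 (SE) was the smallest of the set, and it passed neither without nor with the block (limma adjusted p = 0.935 and 0.353).

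**Figure D2:**
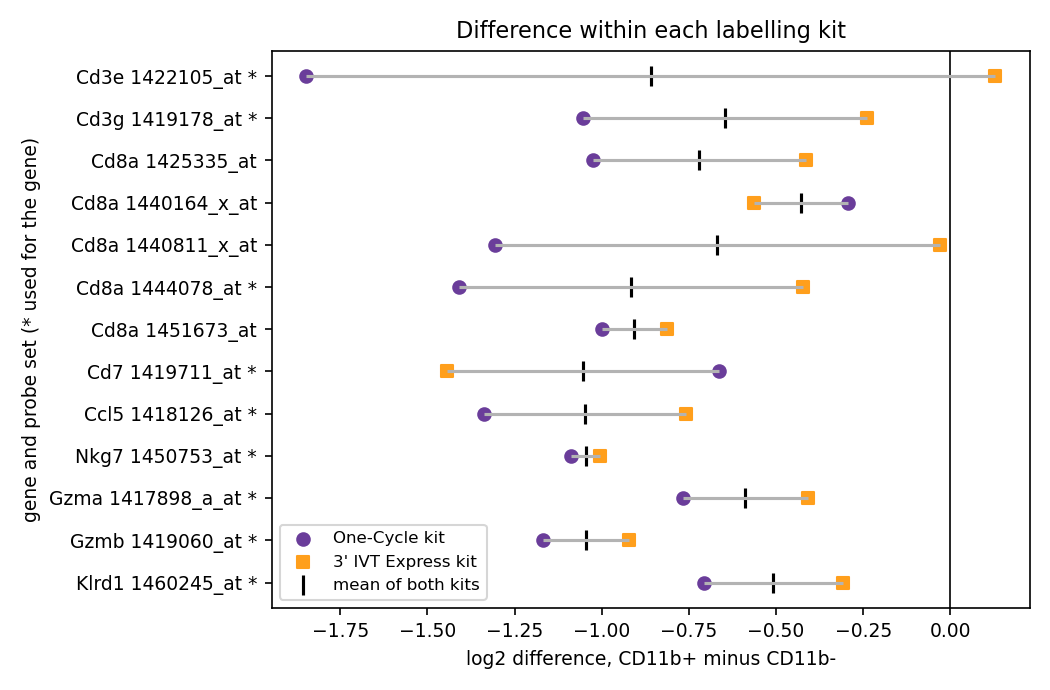
Log2 difference of CD11b-positive minus CD11b-negative (horizontal axis) within each labelling kit for the 13 probe sets of the 9 genes; circles are the One-Cycle kit, squares the 3' IVT Express kit and black ticks their mean. Cd3e alone lies to the right of 0, at 0.13 with the 3' IVT Express kit, and the One-Cycle difference was the larger in size for 8 of the 9 genes by the probe set used.

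The genes also shared a difference between the kits. All 9 read higher with the One-Cycle kit in both groups, as did 32.2% of the genes tested. The median log2 difference of One-Cycle minus 3' IVT Express was 0.93 among CD11b-positive and 1.36 among CD11b-negative arrays, beside -0.03 and -0.0055 for all genes. For 7 of the 9, the mean kit difference exceeded the mean difference between the groups. Kit, amount of RNA and any difference between the preparations used with them cannot be told apart.

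Averaged over the 9 genes, log2 values centred on each gene's own mean were 0.11 and -0.97 in the CD11b-positive One-Cycle and 3' IVT Express arrays, against 1.22 and -0.37 in the CD11b-negative ones. Among the other genes tested, the 5 nearest to this profile over the 4 arrays were Trgv1, Klra5, Ak4, Gpatch3 and Serpina10, at Euclidean distances of 0.15, 0.16, 0.19, 0.20 and 0.29 (log2). Trgv1 is a variable segment of the T cell receptor gamma chain and Klra5 a Ly49 receptor of NK cells. Of the genes of the set, Ccl5 (0.33) lay nearest to its own mean profile and Cd7 (1.83) farthest.

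Other genes of the same programs were read from lists. No listed gene passed the limma test without the block. List counts called with the block are to be read against 4.14% (lower) and 3.73% (higher) of all genes tested. Counts lower or higher with both kits are to be read against 30.5% and 31.6%. Of 7 receptor and coreceptor genes on the array, 3 passed the low-signal filter. Of the 3, 1 was lower and 1 higher with both kits, and 0 were called lower or higher with the block. Cd3d, the CD3 delta chain, repeated the split of Cd3e, with 45.7 and 31.0 in the CD11b-positive arrays against 105 and 22.2 in the CD11b-negative arrays. Cd4 read 46.3 and 5.96 in the CD11b-positive arrays, against 15.4 and 5.75 in the CD11b-negative arrays. Its log2 difference was 1.42 by One-Cycle and 0.03 by 3' IVT Express labelling. Both 3' IVT Express values of Cd4 were under the filter level. Cd247, the zeta chain, and Cd8b1, the CD8 beta chain, lay below the filter and get no fold here.

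Probe sets named for segments of the receptor chains were added after the files were seen. Of 10 such genes, 5 passed the filter, with a median of -0.76. Of the 5, 4 were lower and 0 higher with both kits, and 2 were called lower with the block. Trgv4, a gamma chain segment, read 89.4 and 33.7 in the CD11b-positive arrays, against 229 and 46.6 in the CD11b-negative arrays (limma adjusted p = 0.917, and 0.0211 with the block). Trav9d-3, an alpha chain name, read 99.6 and 92.0 in the CD11b-positive arrays, against 310.2 and 103 in the CD11b-negative arrays (limma adjusted p = 0.836, and 0.0129 with the block). As with Cd3e, the CD11b-negative One-Cycle array stood apart from the other 3. Segments of a chain can be near-identical, so these probe sets may read several of them, and other probe sets of Trgv4 and Trbv1 above the filter went the other way in at least 1 kit.

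Of 22 receptor signalling and surface genes, 15 passed the filter, with a median log2 difference of -0.01, beside 0.0027 over all genes tested. Of the 15, 8 were lower and 1 higher with both kits. Groups did not overlap for 7 lower and 1 higher, against 17.3% and 18.3% of all genes tested. With the block 1 was called lower and 0 higher. That gene was Lat, the adaptor that links the receptor to downstream pathways, at 114 and 86.8 in the CD11b-positive arrays against 214 and 116 in the CD11b-negative arrays (limma adjusted p = 0.826, and 0.0309 with the block). Zap70, the kinase that CD3 recruits, read 81.6 and 67.0 in the CD11b-positive arrays, against 159.8 and 88.8 in the CD11b-negative arrays, by its brightest probe set. The groups of both genes did not overlap, but the other Zap70 probe sets had log2 differences of -0.96 and 0.15. Fyn, Cd28 and Ctla4, the brightest of the list beside Lat, had log2 differences of -0.01, 0.02 and 0.21.

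The cytotoxic genes outside the set did not share its direction as a group. Of 20, 14 passed the filter; their median was -0.15, 6 were lower and 5 higher with both kits, and 0 were called with the block. Prf1, the pore-forming perforin, read 184 and 148 in the CD11b-positive arrays, against 153 and 145 in the CD11b-negative arrays, and its dimmer probe set had a log2 difference of -0.28. Gzmm, another granzyme, read 29.4 and 24.3 in the CD11b-positive arrays, against 13.7 and 8.71 in the CD11b-negative arrays. Its groups did not overlap, as was so for 18.3% of all genes in this direction (log2 difference 1.09, limma unadjusted p = 0.0374, adjusted p = 0.728, and 0.174 with the block). Gzmk, chosen after its values were seen like Gzmm, read 26.5 and 29.4 in the CD11b-positive arrays, against 19.5 and 2.95 in the CD11b-negative arrays. Within the kits its log2 difference was 0.40 (One-Cycle) and 2.45 (3' IVT Express). The CD11b-negative 3' IVT Express values of Gzmm and Gzmk, 8.71 and 2.95, were under the filter level. Ctsw, cathepsin W of cytotoxic cells, read 149.6 and 153 in the CD11b-positive arrays, against 292 and 165 in the CD11b-negative arrays.

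Of 20 NK receptor genes, 10 passed the filter, with a median of -0.21. Of the 10, 4 were lower and 0 higher with both kits, and 1, Klra5, was called lower with the block. It read 54.6 and 28.6 in the CD11b-positive arrays, against 131 and 44.0 in the CD11b-negative arrays (limma adjusted p = 0.872, and 0.0367 with the block). Klrc1, the NKG2A partner of CD94, lay below the filter. Ncr1, the NKp46 receptor of NK cells and some innate lymphoid cells, had a log2 difference of -0.0050, with 0.28 (One-Cycle) and -0.29 (3' IVT Express) within the kits. Klrk1, the NKG2D receptor, read 2.97 and 37.5 in the CD11b-positive arrays, against 18.3 and 34.7 in the CD11b-negative arrays. Its CD11b-positive One-Cycle value was under the filter level. By their brightest probe sets Il2rb and Cd160 were lower with both kits, with log2 differences of -0.39 and -0.35. A dimmer Il2rb probe set above the filter was at -0.39 by One-Cycle and 0.30 by 3' IVT Express labelling.

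Of 17 genes of T and NK cell transcription factors and tissue residency, 16 passed the filter, with a median of -0.28. Of the 16, 8 were lower and 3 higher with both kits, and 2 were called lower and 0 higher with the block. Itgae, the CD103 integrin chain that binds epithelial E-cadherin, read 94.0 and 64.4 in the CD11b-positive arrays, against 235 and 96.0 in the CD11b-negative arrays (limma adjusted p = 0.793, and 0.00395 with the block). Its groups did not overlap, and its other probe set had a log2 difference of -0.74. Id2, a regulator of innate and cytotoxic lymphocytes, read 103 and 113 in the CD11b-positive arrays, against 148 and 196 in the CD11b-negative arrays (limma adjusted p = 0.725, and 0.0226 with the block). Its other probe sets above the filter had log2 differences of -1.42 and -0.17, the last at 0.74 by One-Cycle and -1.08 by 3' IVT Express labelling. Ccr9, a gut-homing receptor, and Cd69, a marker of activated and resident lymphocytes, had log2 differences of 0.06 and -0.33 by their brightest probe sets, and the other Ccr9 probe sets lay between 0.17 and 0.59.

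**Figure D3:**
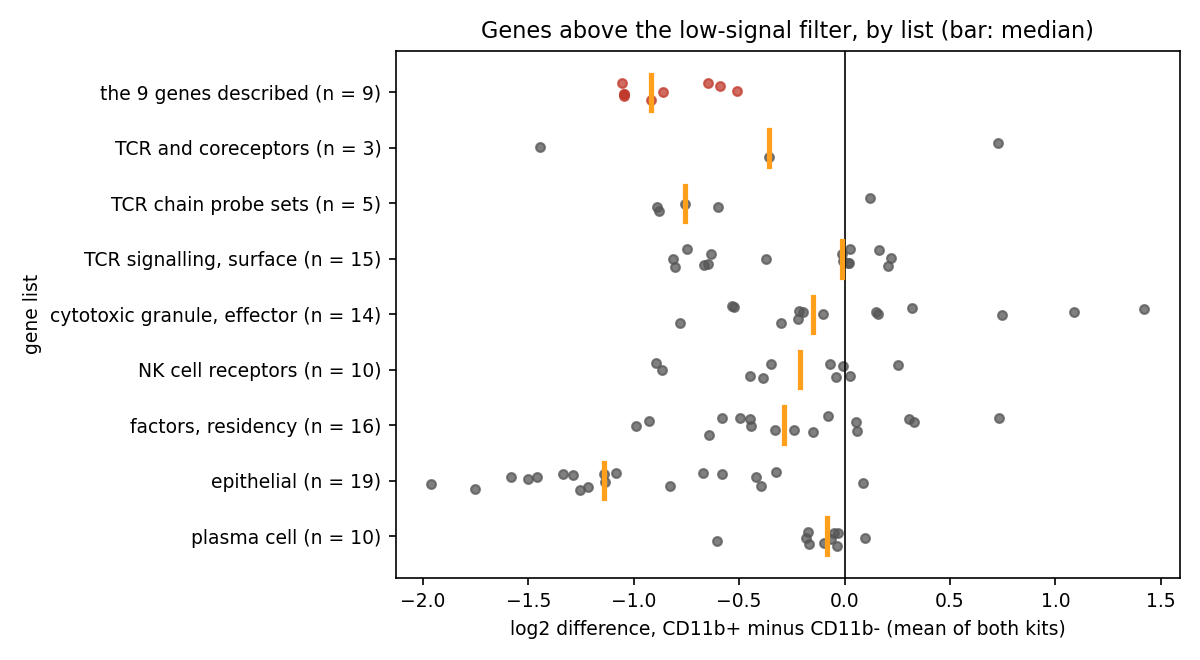
Log2 difference of CD11b-positive minus CD11b-negative, mean of both kits (horizontal axis), for each gene above the low-signal filter in 9 lists; orange bars are medians and TCR stands for T cell receptor. The 9 genes described and 18 of the 19 epithelial markers lie to the left of 0 (medians -0.92 and -1.14), while the other T and NK cell lists spread over both sides.

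Most markers of gut epithelium were also lower in the CD11b-positive group, but they did not share the kit difference of the 9 genes. Averaged over groups, the median One-Cycle minus 3' IVT Express log2 difference was 0.0007 for tested epithelial markers and 1.16 for the 9. Of 20 epithelial markers, 19 passed the filter. Of these, 17 were lower with both kits and 15 were called lower with the block, against 30.5% and 4.14% of all genes tested. Their summed signal was 3966 and 3649 in the CD11b-positive arrays, against 6676 and 7915 in the CD11b-negative arrays. The summed signal of the 9 T cell and cytotoxic genes was 2807 and 1386 in the CD11b-positive arrays, against 5661 and 2053 in the CD11b-negative arrays. Over those 19 the median was -0.92 by One-Cycle and -1.49 by 3' IVT Express labelling, the opposite order to the -1.09 and -0.42 of the 9 genes. The part of the epithelial markers in the result was not tested. Plasma cell markers, the defining genes of the labelled cells, had a median of -0.08 over 10 genes. Of the 10, 8 were lower with both kits and 0 higher, against 30.5% and 31.6% of all genes tested. A both-kit count of this size was thus not particular to the 9 genes. The plasma cell sums were 56496 and 55887 in the CD11b-positive arrays against 58917 and 59860.1 in the CD11b-negative arrays. Igha and Jchain, the brightest, ranked between 1 and 7 on every array. Quantile normalization gives each rank the same value on all arrays, so the values of Igha and Jchain, which enter these sums, could differ little. The dimmer genes of the list were freer to differ. The other Igha probe sets, dimmer, had log2 differences of -0.64 and -0.26. With the block 1 of the 10 plasma cell markers was called lower and 0 higher. That gene, named after its values were seen, was Sdc1, the syndecan CD138 of plasma cells, at 3472 and 4155 in the CD11b-positive arrays against 5626 and 5941 in the CD11b-negative arrays (log2 difference -0.61, limma adjusted p = 0.546, and 8.98e-06 with the block). Mature B cell markers had a median of -0.21 over 9 genes (-0.65 by One-Cycle and 0.16 by 3' IVT Express labelling), with 1 called higher and 1 lower with the block. Macrophage, monocyte and dendritic cell markers had a median of 0.45 over 11 tested genes, with 1 called higher, and innate lymphoid cell markers -0.28 over 5, with 0 called. The controls for RNA quality, read as 3' over 5' signal (higher where RNA is degraded), differed in what they showed. The beta-actin ratio stood at 1.43 and 1.61 in the CD11b-positive arrays, against 1.90 and 1.84 in the CD11b-negative arrays. The Gapdh ratio stood at 0.682 and 0.710 in the CD11b-positive arrays, against 0.685 and 0.704 in the CD11b-negative arrays, so its groups overlap. The part of RNA quality in the result was not tested.

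Leaving out 1 array at a time changed the direction of 5 of the 9 genes. Without the CD11b-negative One-Cycle array, Cd3e, Cd3g, Cd7, Gzma and Klrd1 were higher in the CD11b-positive group, at log2 differences of 0.22, 0.36, 0.27, 0.06 and 0.17. Cd8a, Ccl5, Nkg7 and Gzmb were at -0.36, -0.37, -0.78 and -0.13. Without the CD11b-positive 3' IVT Express array the median was -0.25, and Cd7 was at 0.66. Without the other 2 arrays all 9 genes were lower, with medians of -1.25 (CD11b-positive One-Cycle) and -1.65 (CD11b-negative 3' IVT Express). Each such fit holds the kits unevenly, so part of the kit difference enters it. Of the 9, Nkg7 had the narrowest range over these fits, -1.32 to -0.78.

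**Figure D4:**
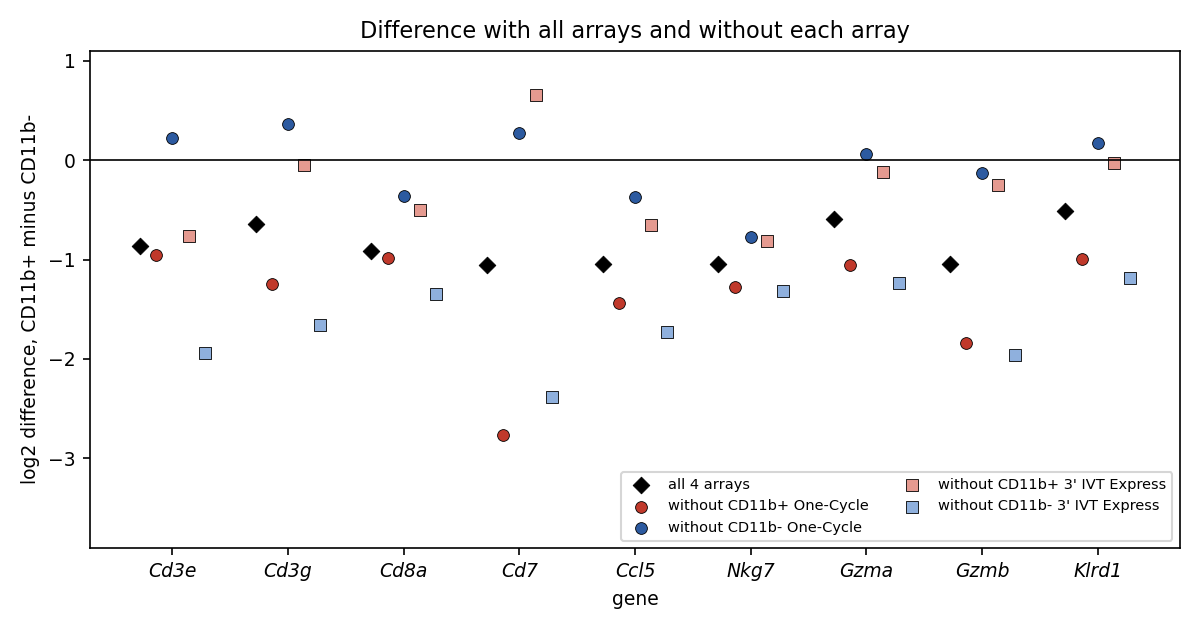
Log2 difference of CD11b-positive minus CD11b-negative (vertical axis) for the 9 genes with all 4 arrays (diamonds) and without each array in turn. The values without the CD11b-negative One-Cycle array (dark blue circles) lie above 0 for 5 genes, and those of Nkg7 lie closest together.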

How the data were processed

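The files hold 4 arrays with 45101 probe sets. The authors deposited linear intensity, 1 value for each probe set and array. The submitters' processing notes name MAS5 and Affymetrix Expression Console, and their settings are not stated in those notes. The median deposited intensity was 18.3 and 17.5 for CD11b-positive arrays, against 14.7 and 16.1 for CD11b-negative arrays.

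After 64 control probe sets were removed, signals were quantile-normalized, since the deposited 2% trimmed means differed (73.8 and 90.3 for CD11b-positive arrays, against 48.6 and 70.05 for CD11b-negative arrays), and log2 of the signal plus 3 was taken. Symbols came from the platform's annotation (34945 probe sets with 1 gene symbol, 932 with several, 9160 unnamed here). The brightest probe set per gene was used, and genes above the 40th percentile of mean log2 signal (a signal of about 9.51) were tested: 12645 genes, among them all 9 measured members. Groups were compared by the 2-sided test of limma 3.58.1 (R 4.3.3), using lmFit and a trended eBayes, with p-values adjusted by Benjamini-Hochberg and called under 0.05, and the code was tested on simulated data. Permuting 2 arrays against 2 exactly gives no p smaller than 0.333, and no such test is reported. The kits pair the arrays by the labels' protocols. Deviations from the group means of arrays of the same kit correlated across genes (r = 0.387), and the kit block was fitted as an alternative. The number of arrays limits the precision.

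The members and lists were chosen with earlier results of these data known. Genes named are the members, a set list of companion genes, up to 4 of the highest mean signal in each list and the 5 nearest in pattern; Gzmm, Gzmk and Sdc1 were picked after their values were seen. Of 204 list entries, 164 were matched; the others, Lck among them, are not analysed here. Alternatives were other pseudocounts (1 and 12), scalings, filters and probe set rules, the kit block, no trend, and leaving out each array.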

Additional observations from a re-analysis of the deposited data

How the results depend on the processing

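Under the 13 alternatives that kept all 4 arrays, all 9 genes stayed lower in the CD11b-positive group, and their median ran from -0.97 to -0.49. Several of these could not change the 9 differences, so they say nothing on the direction. They were the filters, leaving out cross-hybridising probe sets, the fit per probe set, the kit block and the fit without trend. Only the pseudocounts, the scalings and the mean of all probe sets could move them. On the signals as deposited the median of all genes was 0.34 and after centring 0.15, and relative to it the median of the 9 was -0.83 and -0.86. As deposited, Gzma had the smallest difference of the 9, at -0.06. By the 3' IVT Express kit its deposited signal was 1009 (CD11b-positive) against 983, and that of Cd3g was 60.0 against 60.2. None of the 9 passed without the block (smallest adjusted p by limma = 0.535, with a filter at the 70th percentile). Adding the kit as a replicate block called 6 of the 9 and 996 of all genes, against 0 and 0 without it. The block left the differences unchanged and took the kit difference out of the residual spread. The SE of all 9 genes was smaller with it, as for Gzmb (0.69 without and 0.13 with the block) and Cd7 (1.23 and 0.29). What lies behind the kit difference was not tested. On leaving out 1 array at a time the median ran from -1.65 to 0.057, 0 to 24 genes were called, and 0 members. The direction turned without CD11b-negative replicate 1 (the One-Cycle array) for 5 genes, and without CD11b-positive replicate 2 for Cd7. Over these fits Cd3e ran from -1.94 to 0.22, Cd3g from -1.65 to 0.36, Cd7 from -2.77 to 0.66 (0.27 without CD11b-negative replicate 1), Gzma from -1.23 to 0.057 and Klrd1 from -1.19 to 0.17. Each such fit holds the kits unevenly, so part of the kit difference enters these values. Within the 3' IVT Express kit, Cd3e was higher, at 0.13. Cd3g, Cd7, Gzma and Klrd1 were lower within it, at -0.24, -1.44, -0.41 and -0.31. Within the One-Cycle kit Cd7 was lower, at -0.67. No detection calls were used here, so Cd247, Cd8b1 and Klrc1 can be read only as below the filter.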
